A study of Homo sapiens with 13 samples.

Results

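The genes described here are 10 members of the Wnt and R-spondin pathway, out of 19974 protein-coding genes of chromosomes 1 to 22 and X. They are the R-spondin receptors LGR4, LGR5 and LGR6, the ubiquitin ligase ZNRF3, the ligand WNT7B, the receptor FZD7, β-catenin (CTNNB1), the scaffold AXIN2 and the transcription factors TCF7L2 and LEF1. The set was chosen by pathway and by a measured value, the BRG1 fold enrichment at LGR4, where one of the leading BRG1 sites lies, so the BRG1 values of LGR4 are a description and support nothing. Each gene was taken as its RefSeq span on GRCh38 with 50 kb to both sides, and all peaks of the 12 libraries in that window were read. The data are CUT&RUN peak lists from PANC1 cells, a long-used human line from a pancreatic ductal tumour, made into a stable line that expresses BRG1. In CUT&RUN a nuclease brought in by an antibody cuts free the DNA around the protein bound there, here after mild crosslinking. There are 2 replicate libraries for each of 6 targets: BRG1, NRF2, SMARCC1, H3K4me1, H3K4me3 and H3K27ac. All of these libraries come from the BRG1-expressing line (the labels read BRG oe), so no value below compares it with cells at another BRG1 level. An IgG library was not used here. The labels do not say whether the replicates were separate cultures or whether the line is 1 clone.

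Wnt proteins bind Frizzled receptors and LRP co-receptors. In their absence a destruction complex built on AXIN proteins marks β-catenin for degradation, and when that complex is stopped β-catenin enters the nucleus and joins TCF and LEF factors on target genes. R-spondins act one step earlier: bound to LGR4, LGR5 or LGR6 they remove the ligases ZNRF3 and RNF43, which otherwise clear Frizzled from the cell surface. AXIN2 and ZNRF3 are themselves targets of the pathway and serve as its feedback inhibitors. BRG1, encoded by SMARCA4, is the motor subunit of SWI/SNF chromatin remodellers, SMARCC1 is one of their core subunits, and NRF2 is the transcription factor of the antioxidant response. H3K4me3 marks promoters, H3K4me1 marks enhancers, and H3K27ac marks active forms of either.

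The libraries held 3213 and 6610 peaks for BRG1, 1538 and 919 for NRF2, 600 and 572 for SMARCC1, and between 17752 and 37283 for the marks. Weak peaks are listed too: the lowest −log10 p of a library was between 2.01 and 2.04. A −log10 q of at least 1.3 was reached by 258 and 1058 BRG1 peaks, 394 and 182 NRF2 peaks, and 0 SMARCC1 peaks in either library. The lists give no read counts, so the depth is unknown, and the absence of a peak may reflect few reads. The value of a peak is the authors' fold enrichment, over a background that the sources used here do not name. A site or region below is a merged peak that holds a peak from both replicates of its target. With 2 libraries a target no exact permutation test of 2 against 2 libraries could give a p under 0.333, so no test was run and values are given per library. A peak in a bulk sample cannot tell fewer marked cells from less mark per cell. Among markers of cell types, H3K27ac lay at the start of 4 of 6 ductal epithelial markers (KRT8, KRT18, KRT19 and SOX9). It lay at the start of 1 of 20 markers of other pancreatic, immune, endothelial, fibroblast and liver cells (CD68). H3K4me3 lay at the start of 4 of the 6 ductal and 0 of those 20 markers. The shares over all coding genes were 43.1% for H3K27ac and 57.6% for H3K4me3, so the ductal counts alone do not identify the cells.

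On GRCh38 LGR4 spans chr11:27365961-27472790 on the minus strand, LGR6 chr1:202193799-202319761 on the plus strand, and LGR5 chr12:71439129-71586310. ZNRF3 spans chr22:28883572-29057488 and WNT7B, on the same chromosome, chr22:45920366-45977162. FZD7 spans chr2:202033855-202038441, CTNNB1 chr3:41199505-41240443 on the plus strand and AXIN2 chr17:65528563-65561648. TCF7L2 spans chr10:112950247-113167678 on the plus strand and LEF1 chr4:108047548-108168932 on the minus strand. No exons were read, so a peak is placed inside a gene span or in its flank, and strand is given where a RefSeq start was found.

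BRG1 was found in both libraries at 3 of the 10 genes, LGR4, TCF7L2 and LEF1, with 5 sites in all. With peaks of −log10 p of at least 5, or of −log10 q of at least 1.3, the LGR4 site alone was left. Across all protein-coding genes 9.32% held such a site in their windows. All 3 genes are long. Of the 6 members of 100 kb or more 3 held a BRG1 site, against 22.1% of all coding genes of that length. Of the 4 shorter members 0 did, against 9.32% of coding genes of any length. Both counts of 3 include LGR4, whose BRG1 value was used in choosing the set, so they are descriptions only. NRF2 and SMARCC1 sites of both libraries were found at 0 of the 10 genes, against 1.95% of all coding genes for NRF2 and 1.6% for SMARCC1 (2.3% and 2.21% of those of 100 kb or more). Over the 6 factor libraries the windows held 19 peaks, and LGR6, AXIN2, FZD7 and WNT7B held none of them. Of the 10 peaks in BRG1 replicate 2, 6 were met by replicate 1, and of the 6 in replicate 1, 5 were met by replicate 2.

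**Figure D1:**
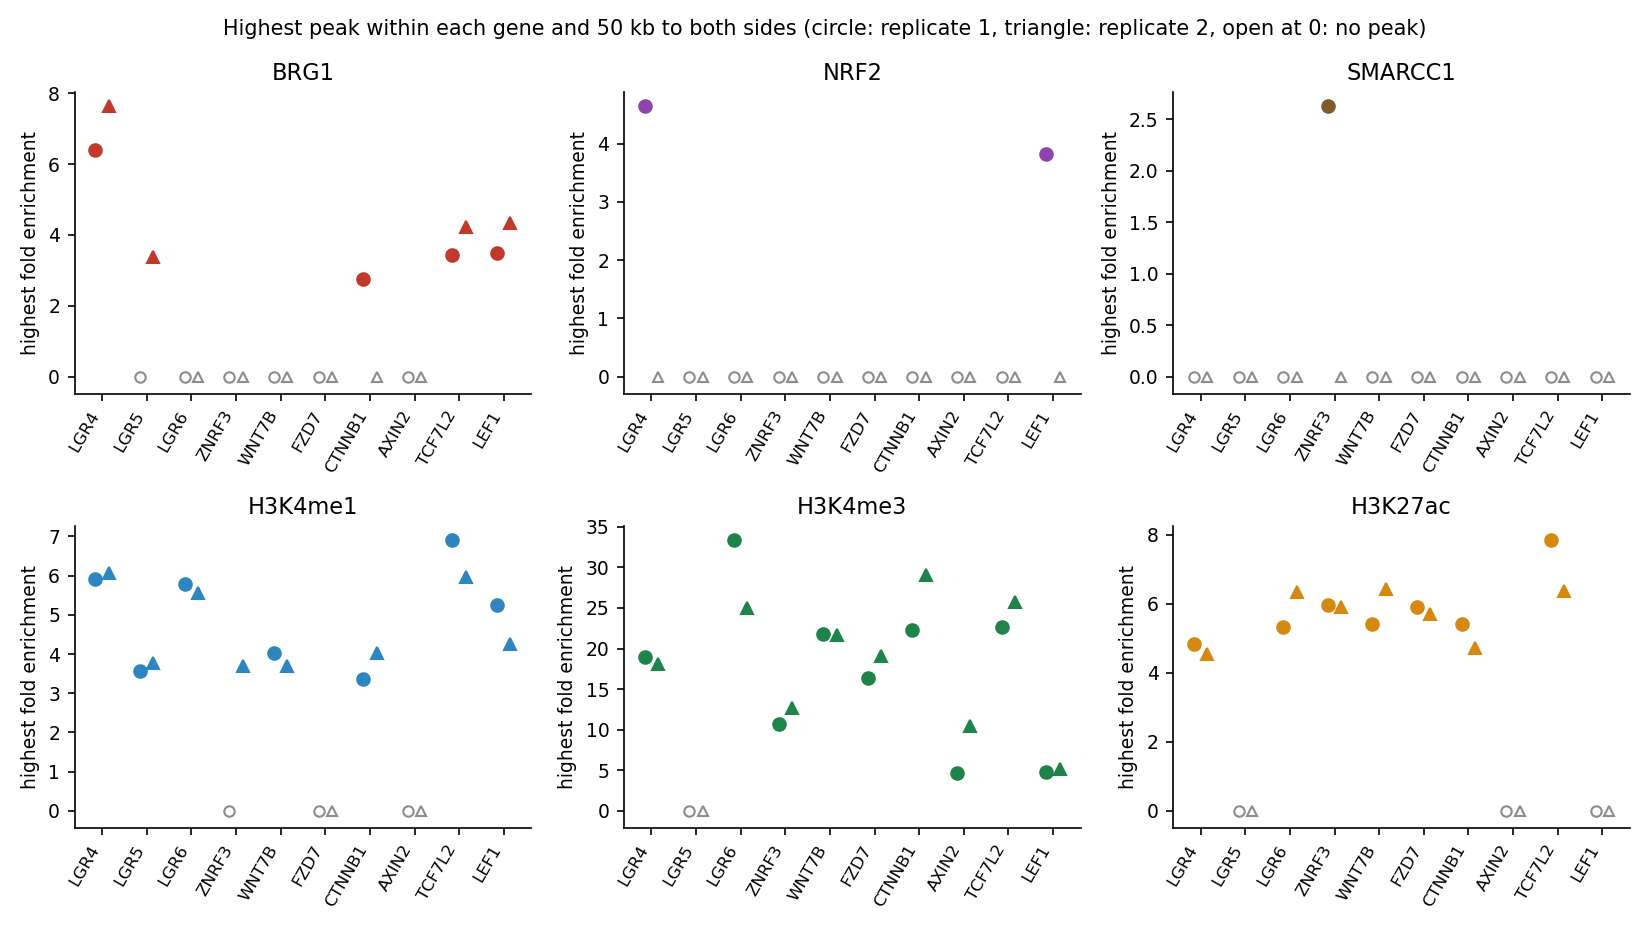
Highest fold enrichment of a peak within each of the 10 genes and 50 kb to both sides (y axis, no unit), for 6 targets; circles are replicate 1, triangles replicate 2, and open symbols at 0 mean that no peak is listed; the highest peaks of 2 libraries can lie at different places and at neighbouring genes. LGR4 stands highest for BRG1 at 6.40 and 7.65, LEF1 and AXIN2 have no H3K27ac peak and LGR5 has neither H3K4me3 nor H3K27ac.

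LGR4, the R-spondin receptor with the widest expression of the 3, held the leading BRG1 site, 70.8 kb downstream of its start and inside the gene (chr11:27401872-27402435). The BRG1 fold enrichment there was 6.40 in replicate 1 and 7.65 in replicate 2, with a mean of 7.03 ± 0.884 (SD, n = 2). The −log10 q of these peaks was 4.80 in replicate 1 and 7.26 in replicate 2. The peak stood 15th of the 3213 in replicate 1 and 14th of the 6610 in replicate 2, and the site 9th of all 2039 BRG1 sites by mean fold enrichment. These ranks are a description, since LGR4 was chosen for the height of this site. Counting LGR4, 10 coding genes had a site as strong in their windows.

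At the same place NRF2 replicate 1 had a peak of fold enrichment 4.65 and −log10 q 1.98, and NRF2 replicate 2 had none. The summits of BRG1 replicate 1 and NRF2 replicate 1 lay 0 bp apart, and those of the 2 BRG1 libraries 6 bp apart. SMARCC1 had no peak in the LGR4 window in either library. Whether the IgG library also has signal at this place was not tested.

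The LGR4 site met an H3K27ac region (chr11:27402215-27402507) with fold enrichments of 3.55 in replicate 1 and 3.16 in replicate 2. The highest BRG1 summit lay 218 bp from the region in replicate 1 and 212 bp in replicate 2, and a smaller second peak of BRG1 replicate 2, at 3.34, had its summit inside it. H3K27ac replicate 1 had a further peak, at 3.14, over these highest summits, and replicate 2 had none there. The nearest H3K4me1 region began 321 bp from the site, at 3.70 and 3.78 in its 2 libraries, and met an H3K27ac region of its own, and the nearest H3K4me3 region was 37.9 kb away.

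Around LGR4 the marks were dense. H3K4me1 had 16 regions and H3K27ac 13, and 1.01% and 2.71% of coding genes had as many in their windows. Among genes of 100 kb or more the shares were 4.297% for H3K4me1 and 3.999% for H3K27ac. The strongest H3K4me1 region lay 41.9 kb into the gene (chr11:27430251-27431623), with 5.91 in replicate 1 and 6.07 in replicate 2, and stood 451st of 23538. It met an H3K27ac peak of replicate 2 alone, at 2.84, and no H3K27ac region of both libraries. Of the 16 H3K4me1 regions 2 met such a region. Of the 13 H3K27ac regions 8 met H3K4me3, at LGR4 itself or at a neighbouring gene, near the share of 54.8% over all H3K27ac regions.

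H3K4me3 covered the LGR4 start from upstream of it to over 3 kb downstream (chr11:27469162-27473101), with 16.5 in replicate 1 and 18.1 in replicate 2. The other H3K4me3 regions of the window lay at neighbouring genes, one at LIN7C with 19.0 and 14.1 and one at CCDC34 with 10.99 and 11.4. The highest H3K4me3 peak of replicate 1 in this window was therefore the one at LIN7C, and that of replicate 2 the one at LGR4.

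LGR5, the receptor known as a marker of intestinal stem cells, was nearly empty. It had 1 H3K4me1 region, 1.4 kb inside its lower-coordinate end (chr12:71440215-71440800), with fold enrichments of 3.58 in replicate 1 and 3.77 in replicate 2. H3K4me3, H3K27ac, NRF2 and SMARCC1 had no peak in its window in any library. BRG1 replicate 2 had 1 peak of 3.37 in the flank, at -41.5 kb from that end, with a −log10 q of 0, and BRG1 replicate 1 had none.

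LGR6, the third receptor, carried H3K4me1 regions within the gene and no other region of both libraries. Of its 4 H3K4me1 regions the strongest lay 87.8 kb downstream of the start (chr1:202281176-202281843), with 5.79 in replicate 1 and 5.55 in replicate 2, standing 639th of 23538. An H3K27ac peak of replicate 1 alone, at 2.01, lay inside the gene. H3K4me3 in the window lay in the flanks, at neighbouring genes. The region at PPP1R12B had 26.0 in replicate 1 and 24.9 in replicate 2, and the one at UBE2T had 17.5 and 18.5. The H3K4me3 values of the LGR6 window are thus values of its neighbours.

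Of the 3 receptors LGR4 alone had H3K4me3 at its start. Upstream sequence of GRCh38.p14 was found in RefSeq for 5 of the 10 genes, and the 250 bases before each start are printed here because H3K4me3 reached into them in some genes and not in others; capitals mark GC boxes, GGGCGG on either strand.
LGR4 (chr11:27472791-27473040, minus strand): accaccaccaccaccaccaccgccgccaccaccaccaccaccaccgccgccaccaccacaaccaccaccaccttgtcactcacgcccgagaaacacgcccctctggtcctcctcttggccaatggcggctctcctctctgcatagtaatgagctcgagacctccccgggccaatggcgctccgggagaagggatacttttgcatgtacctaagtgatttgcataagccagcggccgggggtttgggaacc
LGR6 (chr1:202193549-202193798, plus strand): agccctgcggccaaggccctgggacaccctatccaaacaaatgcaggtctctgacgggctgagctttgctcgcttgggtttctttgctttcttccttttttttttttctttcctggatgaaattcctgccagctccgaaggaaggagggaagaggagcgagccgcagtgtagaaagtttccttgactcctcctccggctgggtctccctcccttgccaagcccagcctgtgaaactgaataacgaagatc
CTNNB1 (chr3:41199255-41199504, plus strand): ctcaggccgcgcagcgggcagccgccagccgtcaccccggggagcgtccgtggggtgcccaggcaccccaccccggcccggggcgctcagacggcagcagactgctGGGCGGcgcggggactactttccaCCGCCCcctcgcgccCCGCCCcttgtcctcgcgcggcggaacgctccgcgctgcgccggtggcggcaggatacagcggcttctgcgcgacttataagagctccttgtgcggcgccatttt
TCF7L2 (chr10:112949997-112950246, plus strand): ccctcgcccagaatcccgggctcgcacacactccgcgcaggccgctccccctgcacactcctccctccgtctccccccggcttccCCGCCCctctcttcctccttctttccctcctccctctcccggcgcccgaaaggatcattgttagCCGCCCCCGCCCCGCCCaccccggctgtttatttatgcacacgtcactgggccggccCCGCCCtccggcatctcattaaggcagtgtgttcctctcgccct
LEF1 (chr4:108166302-108166551, minus strand): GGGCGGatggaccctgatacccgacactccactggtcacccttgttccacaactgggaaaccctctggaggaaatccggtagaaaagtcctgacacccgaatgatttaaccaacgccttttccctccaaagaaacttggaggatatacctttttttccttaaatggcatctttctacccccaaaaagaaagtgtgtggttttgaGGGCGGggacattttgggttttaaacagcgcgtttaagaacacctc
H3K4me3 reached into the stretches of LGR4, CTNNB1 and (at its last bases) TCF7L2, and into neither that of LGR6 nor that of LEF1. The GC content was 62% for LGR4, 53.2% for LGR6, 74.4% for CTNNB1, 68% for TCF7L2 and 47.6% for LEF1. The number of CG pairs was 14 for LGR4, 8 for LGR6, 34 for CTNNB1, 21 for TCF7L2 and 8 for LEF1. Over all 15812 coding genes with such a sequence, the median was 66% GC and 22 CG pairs for the 9522 with H3K4me3 within 1000 bp of the start, and 54.4% and 5 for the 6290 without. GC boxes were found in 3 of the 5 (CTNNB1 with 3, TCF7L2 with 5, some sharing a base, and LEF1 with 2), and in 56.0% of all such promoters. The TCF/LEF core CTTTGAT, the AP-1 motif TGANTCA and the antioxidant response core TGACNNNGC, searched on both strands, occurred in 0 of the 5 stretches, against 1.73%, 5.05% and 11.5% of all promoters. These letters are absent from these 250 bases only, and nothing follows for the factors.

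ZNRF3, the ligase that R-spondin and its receptors remove, had its H3K4me3 and its H3K27ac far apart. H3K4me3 lay over its lower-coordinate end (chr22:28883407-28885186), with 10.7 in replicate 1 and 12.6 in replicate 2, and a second, weaker region lay just outside that end with 5.59 and 4.28. No H3K27ac region lay within 1000 bp of either end. The 4 H3K27ac regions formed a cluster 24.8 to 26.8 kb inside the other end of the gene. The strongest of them (chr22:29031448-29032129) had 5.95 in replicate 1 and 5.91 in replicate 2 and stood 1810th of 24239. The ends of the antisense gene ZNRF3-AS1 lay within 1000 bp of 3 of the 4. The only SMARCC1 peak in any of the 10 windows, 2.64 in replicate 1 with a −log10 q of 0, lay in this cluster, and so did an H3K4me1 peak of 3.70 in replicate 2.

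WNT7B, a Wnt ligand, had the most H3K27ac regions of the 10 genes. There were 20, of which 17 lay inside the gene and 3 in the flank, and 0.686% of coding genes had as many. The H3K27ac peaks behind them, with those of 1 library alone, numbered 28 over 14.9 kb in replicate 1 and 30 over 14.6 kb in replicate 2. The strongest (chr22:45967638-45968615) lay 8.84 kb inside the higher-coordinate end, with 4.76 in replicate 1 and 6.44 in replicate 2. Its highest values were ordinary: 24.9% of coding genes had an H3K27ac region as strong in their windows. The H3K4me3 region at that end (chr22:45974385-45977328) had 21.8 in replicate 1 and 21.6 in replicate 2. The nearest H3K27ac region of both libraries lay within it, more than 1000 bp inside the end of the gene, with a peak of replicate 2 alone nearer to it. H3K4me1 had 3 regions, which all met H3K27ac, and 24.4% of coding genes had as many. It was uneven between libraries, with 13 peaks in replicate 1 and 4 in replicate 2. A second, weaker H3K4me3 region lay in the flank (chr22:46013829-46014142), within 1000 bp of an end of LOC124905134. It had 4.22 in replicate 1 and 4.98 in replicate 2. BRG1, NRF2 and SMARCC1 had no peak in any library.

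FZD7, a Frizzled receptor with a short gene, carried the marks of an active promoter and nothing else. H3K4me3 flanked its lower-coordinate end with one region inside (chr2:202033858-202035663), at 16.0 in replicate 1 and 19.0 in replicate 2, and one outside (chr2:202032459-202033604), at 16.3 and 17.5. H3K27ac lay inside each of them, at 3.41 and 4.33 in the one inside and at 5.90 and 5.70 in the one outside. A weaker H3K4me3 region further into the gene had 6.10 and 5.72. H3K4me1 and the 3 factors had no peak in any library.

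CTNNB1, β-catenin itself, also had H3K4me3 and H3K27ac at its start. Its 1 H3K4me3 region (chr3:41198656-41201684) spanned the start with 22.3 in replicate 1 and 29.0 in replicate 2. Of its 2 H3K27ac regions one lay at the start, with 4.79 and 4.72, and one 1.305 kb downstream, with 5.42 and 3.43. Of the 2 H3K4me1 regions in its window the stronger lay in the flank, 75.4 kb downstream of the start, and the other inside the gene. Neither met an H3K27ac region. A BRG1 peak of 2.74 in replicate 1 alone, with a −log10 q of 0, lay inside the flank region, 75.5 kb downstream of the start.

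AXIN2, the feedback scaffold, had 1 region in all. H3K4me3 lay at its higher-coordinate end (chr17:65559766-65561598), with 4.67 in replicate 1 and 10.4 in replicate 2, a mean of 7.54 ± 4.05 (SD, n = 2). The libraries stood far apart here. H3K27ac, H3K4me1, BRG1, NRF2 and SMARCC1 had no peak in the AXIN2 window in any library.

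**Figure D2:**
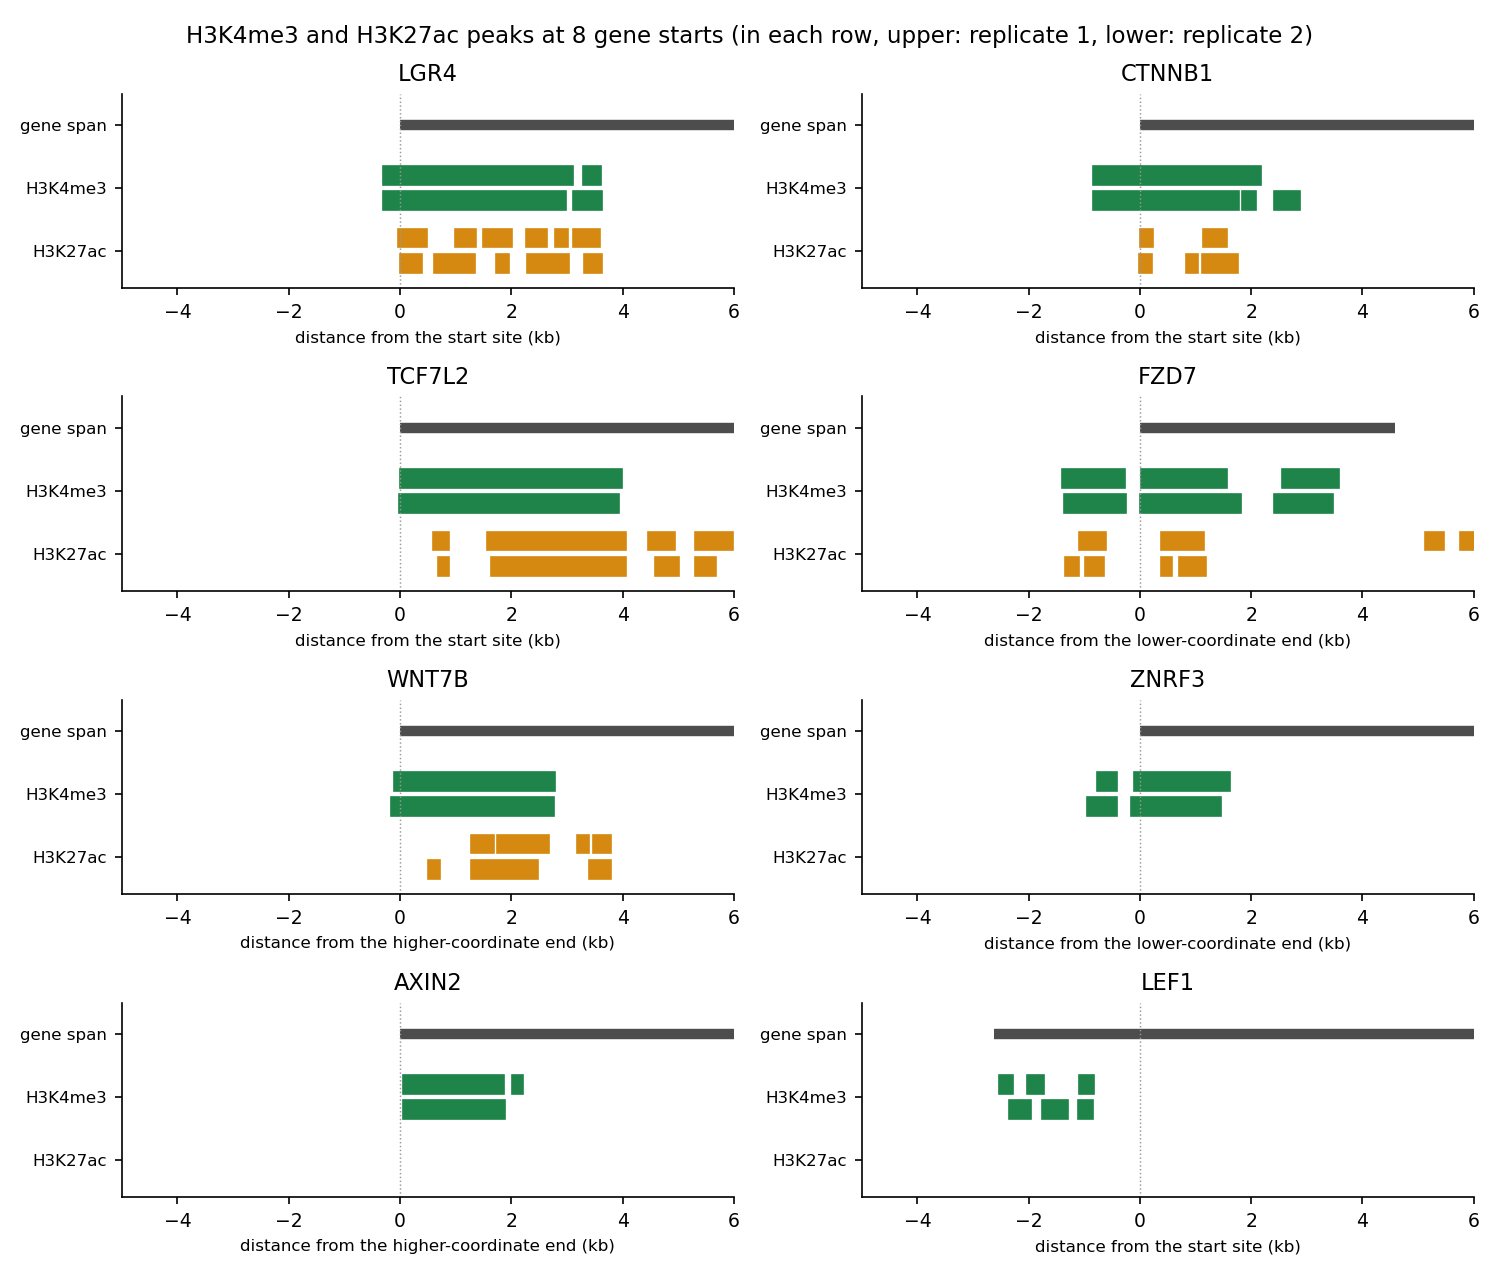
H3K4me3 (green) and H3K27ac (orange) peaks of each library around the 8 gene starts with H3K4me3; the x axis is the distance in kb from the start site, or from the gene end that carries H3K4me3 where no start site was read, positive into the gene. Acetylation overlaps the H3K4me3 of LGR4, CTNNB1, TCF7L2, FZD7 and WNT7B, and ZNRF3, AXIN2 and LEF1 show none.

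Taking the starts of the 10 genes as a set, 8 had H3K4me3 within 1000 bp of the start (or of either end, where no start was read), against 57.6% of all coding genes. H3K27ac was there in 4 (LGR4, CTNNB1, TCF7L2 and FZD7), against 43.1%, and H3K4me1 in 0, against 4.35%. The combination of H3K4me3 without H3K27ac within 1000 bp was found at 4 (ZNRF3, AXIN2, LEF1 and WNT7B), against 15.3% of all coding genes. Of the genes with H3K4me3 at the start, 26.7% lacked H3K27ac there. Among genes with a start read from RefSeq, 4 of these 5 had H3K4me3, against 60.2% of all. LEF1 enters these H3K4me3 counts through a weak region, at 4.81 in replicate 1 and 4.07 in replicate 2. The gene to which that region belongs cannot be told apart. For WNT7B the lack of H3K27ac rests on the distance chosen, since H3K27ac of both libraries lay within the same H3K4me3 region further in, and an H3K27ac peak of replicate 2 alone lay within 1000 bp.

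TCF7L2, the TCF factor, had the most H3K4me1 regions of the 10 genes. There were 21, with 16 H3K27ac regions, and 0.461% and 1.43% of coding genes had as many in their windows. Among genes of 100 kb or more these shares were 2.39% and 2.86%. Of the 21 H3K4me1 regions 7 met H3K27ac. The strongest H3K4me1 region (chr10:113019802-113020575) lay 70.1 kb into the gene, with 6.92 in replicate 1 and 5.96 in replicate 2, and stood 244th of 23538. It met no H3K27ac region. At the start, H3K4me3 (chr10:112950224-112954231) had 22.7 in replicate 1 and 25.7 in replicate 2. The broad H3K27ac region that overlapped it (chr10:112951814-112954309) had 7.85 and 6.36, the highest H3K27ac mean of the 10 genes.

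TCF7L2 held 2 BRG1 sites, both below the median mean fold enrichment of all BRG1 sites, 3.74. One lay at -46.0 kb from the start (chr10:112904032-112904410), near the edge of the window, with 3.02 in replicate 1 and 4.22 in replicate 2. It met both H3K4me1, at 3.95 and 3.09, and H3K27ac, at 2.82 and 3.50, and it was the only one of the 5 sites to meet H3K4me1. The other lay 143 kb downstream, inside the gene (chr10:113093445-113093944), with 3.44 and 3.27. It met H3K27ac in replicate 1 only, and the nearest H3K27ac region of both libraries was 6.73 kb away. The −log10 q of the first site's peaks was 0 in replicate 1 and 0.689 in replicate 2, and that of the second's 0.218 and 1.04. BRG1 replicate 2 had 2 more peaks in the gene, at 2.87 and 3.66, and replicate 1 had neither. Their −log10 q was 0 and 1.93, so the peak at 3.66 had a higher −log10 q than any peak of the 2 sites.

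LEF1, the other nuclear partner of β-catenin, also held 2 BRG1 sites, in a window with no H3K27ac peak. They lay side by side inside the gene, 47.6 kb and 47.0 kb downstream of the start. The first (chr4:108118492-108118952) had 3.49 in replicate 1 and 4.34 in replicate 2, and the second (chr4:108119162-108119512) had 3.20 and 3.14. The −log10 q was 0.810 for the first in replicate 2 and 0 for the other 3 peaks. Neither met a mark region of both libraries, although an H3K4me1 peak of replicate 2 touched the second. The highest H3K4me1 peak of replicate 1 in the window (chr4:108117610-108117855) lay close by, 48.6 kb downstream of the start. It had a fold enrichment of 5.24 and a −log10 q of 2.67. The nearest H3K27ac region was 292 kb from the first site, outside the window. A further BRG1 peak of replicate 2, at 3.78, lay in the flank beyond the far end of the gene. It met an NRF2 peak of replicate 1, at 3.82, as at LGR4 with the second NRF2 library empty. Beside them, without meeting them, lay the window's only H3K4me1 region of both libraries (chr4:108044279-108044848), with 4.32 in replicate 1 and 4.25 in replicate 2.

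Near its start LEF1 had weak H3K4me3. The strongest region (chr4:108167600-108168832) had 3.89 in replicate 1 and 5.19 in replicate 2, and a second (chr4:108167135-108167420) had 4.81 and 4.07. Both lay upstream of the start read from RefSeq, between it and the end of the gene span. The first lay within 1000 bp of ends of LEF1, the antisense LEF1-AS1 and the coding gene LOC124900752, and the second of the last 2 only, so the gene they belong to cannot be told apart. In all, 76.4% of coding genes had a stronger or equal H3K4me3 region in their windows. No H3K27ac peak was listed in the LEF1 window in either library.

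**Figure D3:**
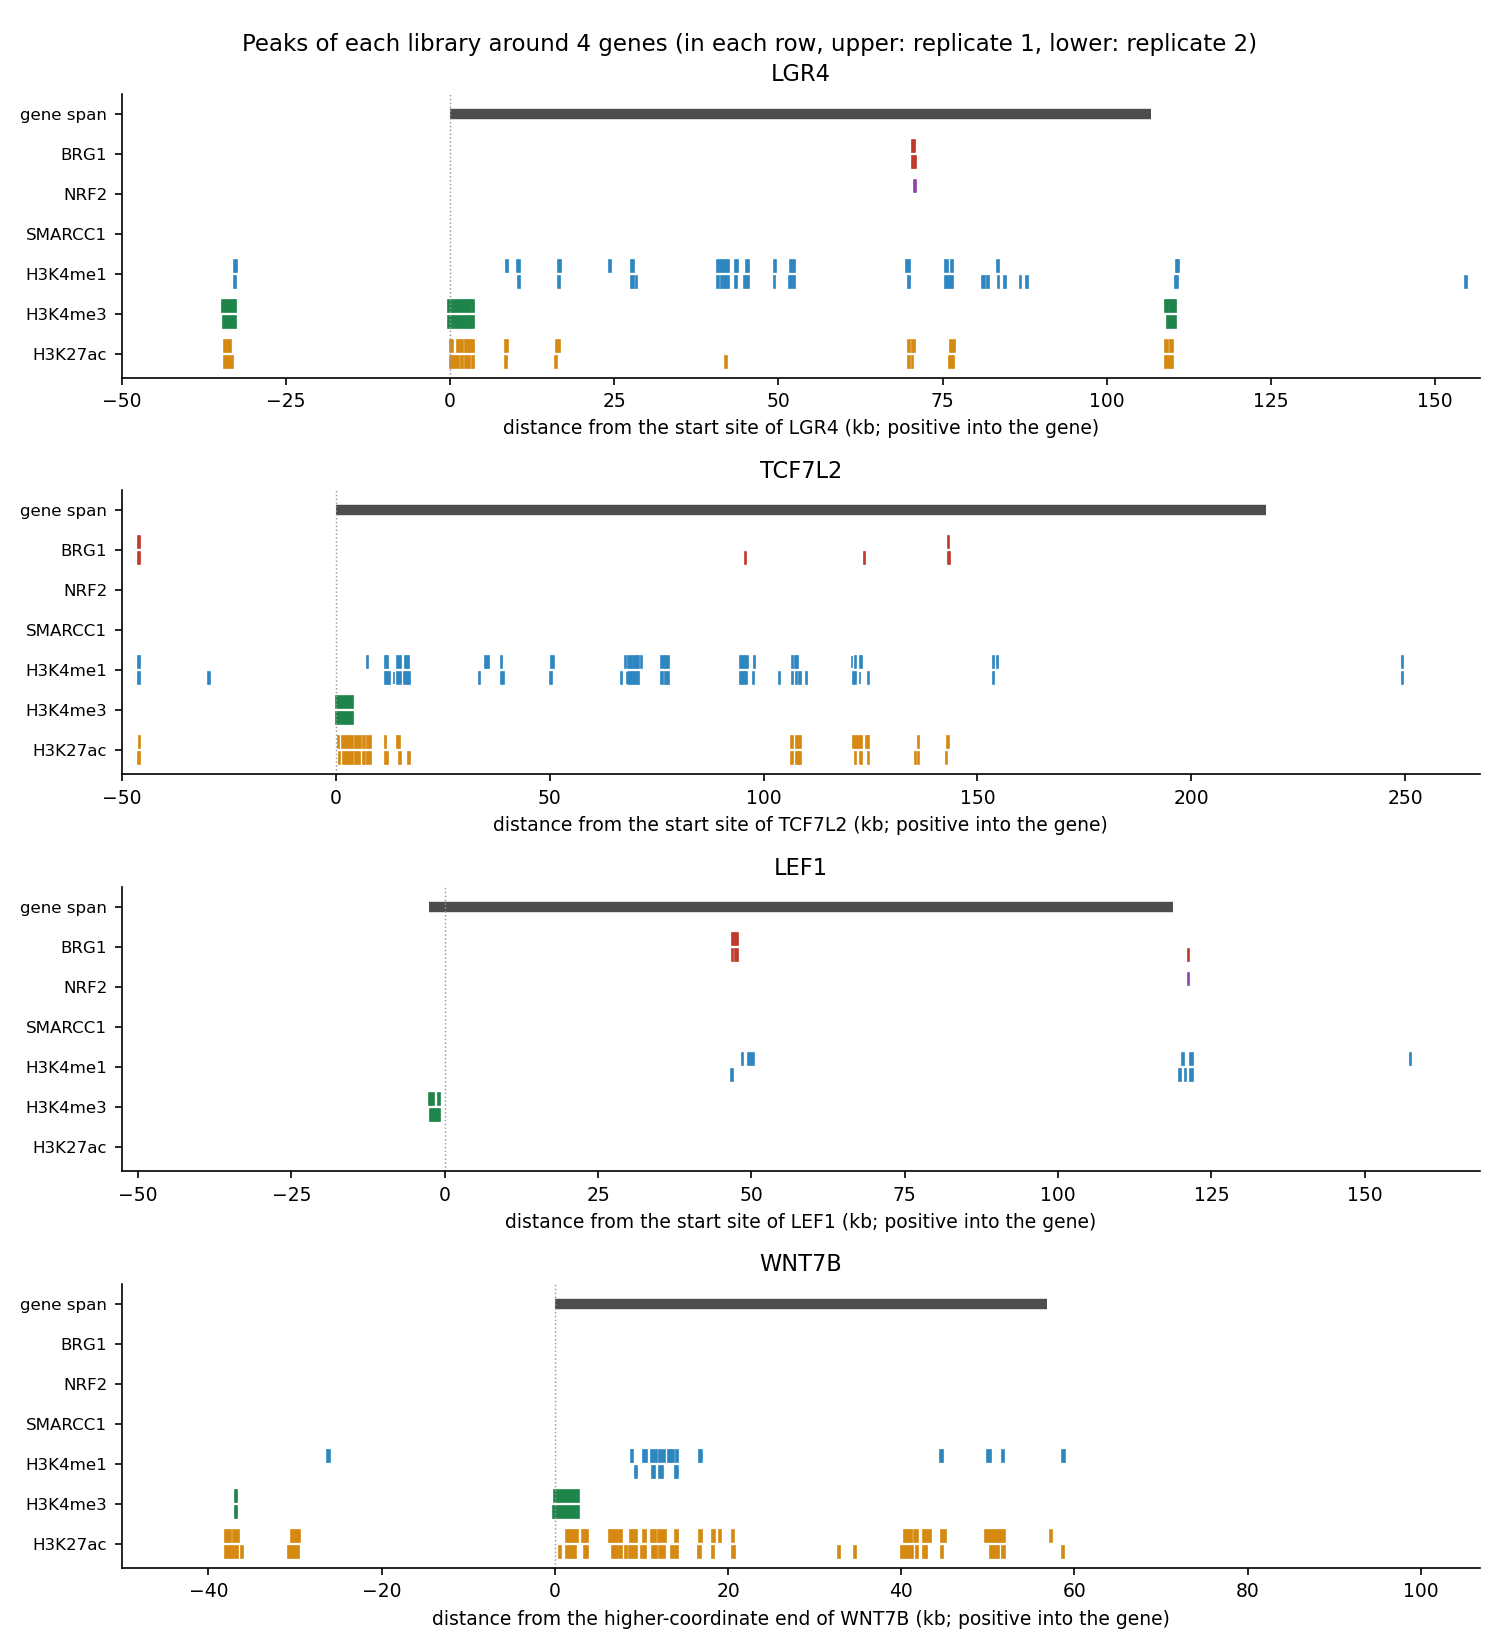
Peaks of every library around LGR4, TCF7L2, LEF1 and WNT7B; the x axis is the distance in kb from the start site (for WNT7B from its higher-coordinate end), positive into the gene, and each target has replicate 1 above replicate 2. BRG1 lies 70.8 kb inside LGR4 beside H3K27ac, at 2 places of TCF7L2 and at 1 double site in LEF1 with no acetylation in the window, and WNT7B shows acetylation with no BRG1.

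Of the 5 BRG1 sites at these genes, 2 met H3K27ac, 1 met H3K4me1 and 0 met H3K4me3, and 3 met none of the marks. Over all 2039 BRG1 sites the shares were 31.7% for H3K27ac, 28.9% for H3K4me1, 5.44% for H3K4me3 and 52.3% for no mark. Without LGR4 the sites stood 823rd, 1138th, 1485th and 1685th of 2039. The first of these, at 3.92, lay above the median BRG1 fold enrichment of 3.74. The others, at 3.62, 3.35 and 3.17, lay below it. Ordered by the mean of each gene's strongest BRG1 site, LGR4 stood first at 7.03, above LEF1 at 3.92 ± 0.601 (SD, n = 2) and TCF7L2 at 3.62 ± 0.844 (SD, n = 2). The library ranges of LEF1 and TCF7L2 overlapped each other, and that of LGR4 overlapped neither. LGR4 was chosen for the height of its site, so its place in this order is no finding.

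**Figure D4:**
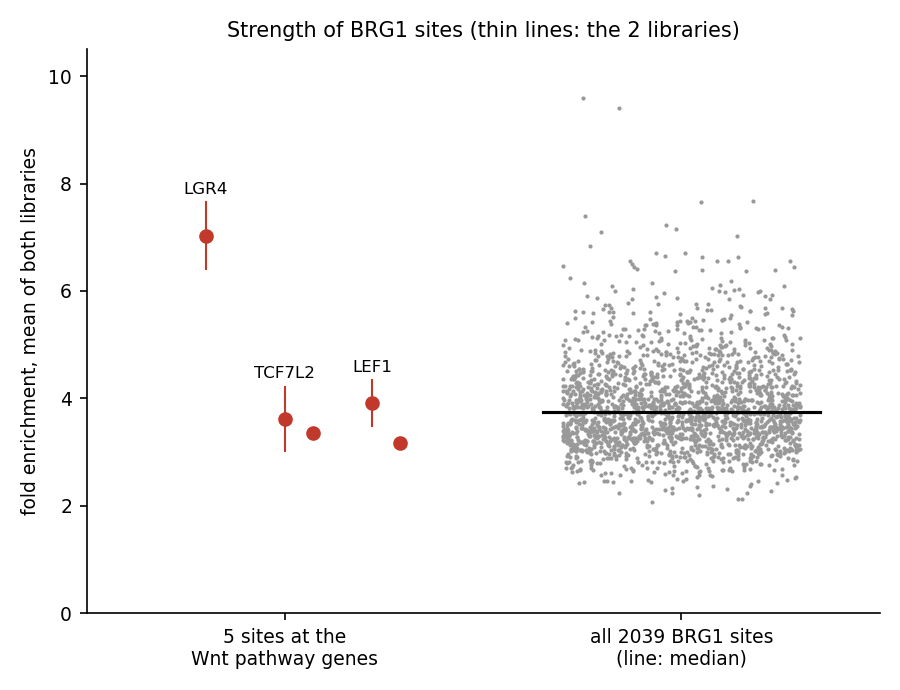
Fold enrichment of BRG1 sites, mean of both libraries (y axis, no unit): left, the 5 sites at LGR4, TCF7L2 and LEF1, each with a thin line between its 2 libraries and the second site of TCF7L2 and LEF1 to the right of the first; right, all 2039 BRG1 sites with their median of 3.74. The LGR4 site at 7.03, chosen for its height, lies near the top of all sites, and the other 4 lie between 3.17 and 3.92.

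The order of the genes by the strongest region of each differed from mark to mark, by the mean of the 2 libraries. LGR6 is left out for H3K4me3 and H3K27ac, since its regions all lie at neighbours. For H3K4me3 the order ran from CTNNB1 at 25.7 ± 4.77 through TCF7L2 at 24.2 ± 2.15, WNT7B at 21.7 ± 0.0998, FZD7 at 17.5 ± 2.13, LGR4 at 17.3 ± 1.13, ZNRF3 at 11.7 ± 1.36 and AXIN2 at 7.54 ± 4.05 to LEF1 at 4.54 ± 0.915 (SD, n = 2 each). The library ranges overlapped between CTNNB1 and TCF7L2, between FZD7 and LGR4, and between AXIN2 and LEF1. For H3K27ac TCF7L2 stood first at 7.102 ± 1.06, before ZNRF3 at 5.93 ± 0.0321, FZD7 at 5.80 ± 0.146, WNT7B at 5.60 ± 1.18, CTNNB1 at 4.75 ± 0.0538 and LGR4 at 4.52 ± 0.432 (SD, n = 2 each). The range of WNT7B overlapped those of all the other 5, and those of CTNNB1 and LGR4 overlapped. For H3K4me1 TCF7L2 at 6.44 overlapped LGR4 at 5.99. LGR6 followed at 5.67 and LEF1 at 4.28, each apart from its neighbours in the order. WNT7B at 3.86, LGR5 at 3.67 and CTNNB1 at 3.49 overlapped each other. The H3K4me1 regions of LEF1 and CTNNB1 in this order lay in the flanks, outside the genes.

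**Figure D5:**
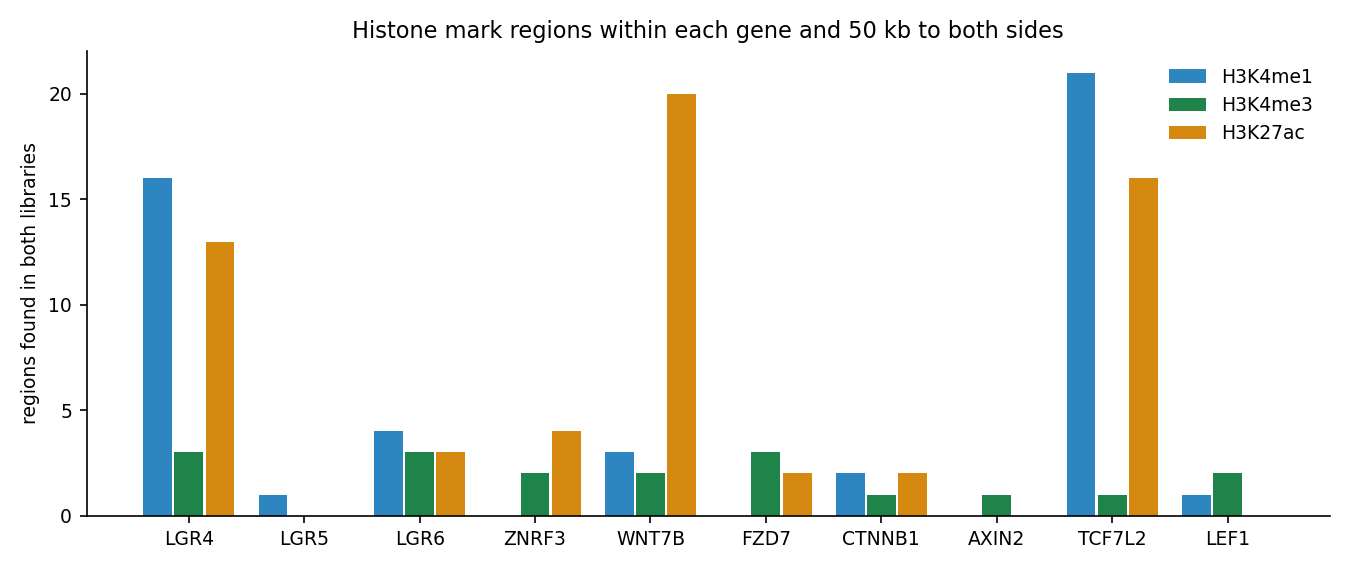
Number of H3K4me1, H3K4me3 and H3K27ac regions found in both libraries (y axis) within each gene and 50 kb to both sides. TCF7L2 and LGR4 have many regions of both H3K4me1 (21 and 16) and H3K27ac (16 and 13), WNT7B has 20 of H3K27ac and 3 of H3K4me1, and LGR5 and AXIN2 have 1 region each.

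In all, the windows of the 10 genes held 48 H3K4me1, 18 H3K4me3 and 60 H3K27ac regions. The H3K4me1 number was 81 without H3K4me1 replicate 1 and 83 without H3K4me1 replicate 2. With −log10 p of at least 5 there were 7 H3K4me1 and 18 H3K27ac regions, and with −log10 q of at least 1.3 there were 10 and 33. H3K4me1 was found at 7 of the 10 genes, against 52.6% of all coding genes, H3K4me3 at 9, against 78.2%, and H3K27ac at 7, against 71.6%. Of the 6 members of 100 kb or more, 5 had H3K4me1, 5 H3K4me3 and 4 H3K27ac, against 69.9%, 78.6% and 70.3% of all coding genes of that length. Of the 48 H3K4me1 regions 12 met H3K27ac, against 21.7% of all H3K4me1 regions. Of the 60 H3K27ac regions 12 met H3K4me1 and 19 met H3K4me3, against 20.8% and 54.8% of all H3K27ac regions. Regions of 1 window share a gene and are not independent, and 49 of the 60 came from LGR4, TCF7L2 and WNT7B.

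By the 12 highest values of each gene, on the scale of log2(fold enrichment + 1) with 0 for no peak, the coding genes nearest to LGR4 whose windows do not overlap its own were ATXN1, LYPLAL1 and DCP2. Their Euclidean distances from LGR4 were 0.737, 0.740 and 0.786, against a median of 5.71 over 19971 genes. Each had BRG1 in both libraries, such as 6.27 and 6.66 at LYPLAL1, and NRF2 in replicate 1 only. The 3 genes were picked by these same values, so the shared pattern is no finding. Highest values of a window can lie at different places or at neighbouring genes. TCF7L2 was the nearest of the other 9 genes, at 2.86, and LGR5 the farthest, at 8.10.

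A wider list of 94 Wnt pathway genes was read in the same way. Some of them share regions with a neighbour of the list, such as WNT6 with WNT10A, and KREMEN1 lies in the window of ZNRF3. The 94 are therefore not independent. BRG1 was found at 6 of the 94, against 9.32% of all coding genes, NRF2 at 2, against 1.95%, and SMARCC1 at 2, against 1.6%. These counts rest on the peaks kept: at −log10 q of at least 1.3 BRG1 was at 0 genes, NRF2 at 1 and SMARCC1 at 0. No SMARCC1 peak read from either library reached that threshold, so the 0 for SMARCC1 was fixed in advance. Without replicate 1 of the target the counts were 28 for BRG1, 8 for NRF2 and 5 for SMARCC1, and without replicate 2 they were 9, 9 and 7. H3K4me1 was found at 64.9% of the list (61 genes), against 52.6% of all coding genes, H3K4me3 at 87.2% (82), against 78.2%, and H3K27ac at 69.1% (65), against 71.6%. At −log10 q of at least 1.3 the H3K4me1 count was 19. By role, BRG1 was at 2 of 24 genes of ligands and their secretion, 0 of 15 receptors, 2 of 17 inhibitors, 1 of 17 cytoplasmic components, 0 of 13 nuclear components and 1 of 8 targets. The strongest BRG1 site of the list lay in the flank of TNKS2, a tankyrase that marks AXIN for degradation, with 4.69 in replicate 1 and 4.98 in replicate 2, and met H3K27ac. The others were at the R-spondin RSPO2 (3.71 and 4.14, in the flank), the ligand WNT2B (3.46 and 2.58, over the neighbouring ST7L), the secreted inhibitor DKK3 (3.04 and 3.51, in the flank), the Dishevelled antagonist NKD2 (2.89 and 3.59, in the flank) and TNFRSF19 (3.23 and 3.86, inside the gene). None of these 6 reached the LGR4 value in either library, and the LGR4 site was chosen for its height.

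H3K4me3 lay at the start of 64 of the 94 genes, against 57.6% of all coding genes, and H3K27ac of 35, against 43.1%. By role, H3K4me3 and H3K27ac were at 9 and 2 of 24 ligand genes, 13 and 5 of 15 receptors, 8 and 2 of 17 inhibitors, 16 and 15 of 17 cytoplasmic components, 12 and 7 of 13 nuclear components and 6 and 4 of 8 targets, and differences between roles were not tested. Of the up to 2 genes a role with the strongest H3K27ac region, 6 had that region inside the gene. Among them were DVL3, a Dishevelled protein, with 5.61 in replicate 1 and 11.9 in replicate 2, BCL9L, a β-catenin co-activator, with 7.36 and 8.85, and the receptor ROR1, with 7.45 and 7.99. LRP6, the Wnt co-receptor, had 6.31 and 6.26, EPHB2 6.66 and 6.002 and CCND1, encoding cyclin D1, 5.56 and 6.02. For WIF1, SFRP4, WNT8A, WNT3A, TCF7L1 and CSNK1D the strongest H3K27ac region lay over a neighbouring gene, as with LGR6 and H3K4me3. The NRF2 site counted for WNT11, with 13.6 and 11.1, lay within 1000 bp of tRNA genes, and that of FZD1 had 3.68 and 2.59. The SMARCC1 sites were in the flanks of CSNK1A1 (3.24 and 3.42) and CSNK1E (3.10 and 3.24), that of CSNK1E at an end of TMEM184B. Genes of the NRF2 and SMARCC1 sites were named after their values were seen.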

How the data were processed

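CUT&RUN was run on PANC1 cells stably expressing BRG1, with mild crosslinking per the labels' protocols. Named without roles or settings in the submitters' processing notes are MACS2 2.2.7.1, Picard 2.23.9, SAMtools 1.9, Bowtie2 2.4.1 and GRCh38, and the control for peak calling is not given in the sources used here. The fold enrichment (a ratio) of each peak, its −log10 p and −log10 q, its score and its summit position are the authors' deposited values, called library by library. The deposited score was not used, and −log10 p and q served as thresholds in alternatives and as descriptions.

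Overlapping or touching peaks of both replicates were merged, and merged peaks with a peak from each were kept as sites. A site belonged to a gene if it met the RefSeq span (GRCh38.p14) and 50 kb to both sides by 1 bp. Start sites came from RefSeq promoter entries, found for 5 of the 10 genes. For the others the nearest gene end was used, so the start counts take either end. Distances are measured from the summit of the site's highest peak. Exons were not read.

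The 10 genes, the wider list and all rules were chosen with earlier results of these data known. The genes named are the 10, the 3 nearest to LGR4, and the up to 2 wider-list genes a role with the strongest BRG1 and H3K27ac site. Overlaps were tested on simulated data. Python 3.11.15, NumPy 2.4.6 and matplotlib 3.10.9 were used. Alternatives were thresholds, windows, overlap, single replicates and either replicate. One region in the LGR6 window is not reported here.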

Additional observations from a re-analysis of the deposited data

How the results depend on the processing

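Of 68 values of the main results under other settings, 55 stayed within 1.5 times the main value. Among these are 2 of the LGR4 fold enrichment that say nothing of stability. With n = 2, leaving out a library cannot move a mean by over 1 SD. Others are NRF2 and SMARCC1 counts of 0, which cannot rise under a stricter threshold, a smaller window or the centre rule. BRG1 was found at 1 gene, LGR4, with peaks of −log10 p of at least 5 or of −log10 q of at least 1.3, and at 5 genes with peaks of either replicate, against 3 in the main setting; leaving out a BRG1 library gave 4 and 4. The BRG1 sites that met H3K27ac numbered 0 at either threshold, with 1 site left, and 1 with a window of 10 kb, against 2. H3K4me1 was found at 4 genes at either threshold, against 7. NRF2 was found at 2 genes and SMARCC1 at 1 with peaks of either replicate, against 0; leaving out an NRF2 library gave 0 and 2 genes, leaving out a SMARCC1 library 0 and 1. H3K4me3 lay at 5 starts when the centre of the region had to lie within 1000 bp, against 8. The cause of these moves was not tested, other than that fewer peaks pass a threshold and a smaller window holds fewer sites. The BRG1 value at LGR4 ranged between 6.40 and 7.65 when 1 of its libraries was left out. No paired analysis was possible because no result comes from a test. Depth is unknown, so a missing peak may be a shallow library.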
